A study of Mus musculus with 2 samples.

Results

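The 10 genes described here, Cck, Gcg, Gip, Sct, Sst, Ghrl, Nts, Pyy, Tac1 and Gal, encode peptide hormones and transmitters of the gut wall. They were listed by name and found by their Ensembl identifiers among 43346 genes, and all 10 were present in the tables of both libraries. Their levels were measured by RNA-seq of poly(A) RNA from the small intestine of 1 adult female C57BL/6J mouse aged 10 weeks, and no genotype or treatment was labelled. The same biological sample gave 2 technical libraries. Technical replicate 2, made in 2015, is called the second library here, and technical replicate 1, the earlier, is called the first library. The labels give neither the segment of the small intestine nor whether both libraries came from the same RNA extraction. All values come from 1 animal, so no error given here describes variation between mice.

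Enteroendocrine cells are rare hormone-secreting cells scattered through the gut epithelium. They sense nutrients and bile acids in the lumen, store peptides in dense-core granules and release them toward blood vessels and nerve endings. Each peptide is cut from a longer prohormone by convertases. Hormones of the proximal small intestine, such as secretin, cholecystokinin and GIP, are known for their action on the pancreas and gall bladder, while GLP-1, PYY and neurotensin are known chiefly from the distal gut. Tachykinins and galanin are also made by enteric neurons, and somatostatin by both enteroendocrine and neuronal cells.

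An exon that codes for the hormone itself is shown for 4 members that lie far apart in base composition. They were chosen since the difference between the libraries moved with GC content. For GIP the exon holds only part of the hormone, whose last residues lie beyond its end. The exons are read 5′ to 3′ on the strand of the gene, from GENCODE M21 transcripts on mm10, with each G and C in capitals. The secretin exon (chr7:141278833-141278934, minus strand) holds 64.7% G or C over 102 bases. The GIP exon (chr11:96026624-96026770, plus strand) holds 53.1% over 147 bases, and the GLP-1 exon of Gcg (chr2:62476824-62476961, minus strand) holds 49.3% over 138 bases. The neurotensin exon (chr10:102482334-102482483, minus strand) is the poorest, with 37.3% over 150 bases.
Sct exon 2: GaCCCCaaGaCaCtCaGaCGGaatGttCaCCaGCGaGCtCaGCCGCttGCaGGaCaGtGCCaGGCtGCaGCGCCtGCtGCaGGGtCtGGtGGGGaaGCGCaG
Gip exon 3: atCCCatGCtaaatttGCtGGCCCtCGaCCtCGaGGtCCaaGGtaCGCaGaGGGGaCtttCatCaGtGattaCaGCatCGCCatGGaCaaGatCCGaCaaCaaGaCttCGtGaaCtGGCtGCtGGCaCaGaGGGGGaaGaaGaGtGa
Gcg exon 4: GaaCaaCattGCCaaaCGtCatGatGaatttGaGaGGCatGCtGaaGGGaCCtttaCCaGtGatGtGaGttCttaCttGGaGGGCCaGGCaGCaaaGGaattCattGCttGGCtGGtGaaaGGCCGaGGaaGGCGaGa
Nts exon 4: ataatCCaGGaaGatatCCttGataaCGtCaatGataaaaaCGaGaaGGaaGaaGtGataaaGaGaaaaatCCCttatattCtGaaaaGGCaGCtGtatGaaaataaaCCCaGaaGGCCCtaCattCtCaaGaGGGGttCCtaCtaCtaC

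The second library held 24509862 expected counts and the first 28277875. Mitochondrial genes and their nuclear copies took 21.6% of TPM (a transcript level corrected for length and scaled to a fixed sum) in the second library against 72.3% in the first, and 13571 genes reached 1 TPM in the second library against 9391 in the first. All 8 small intestine epithelium markers, led by Apoa4, Fabp1 and Fabp2, reached 1 TPM in both libraries. All 8 enteroendocrine markers had counts in both, with a summed level of 150.4 TPM in the second library against 30.9 TPM in the first. Chgb and Chga made up most of the second library's sum, and the markers did not share a direction. On TPM, Chgb, Chga, Tph1 and Pcsk1 were higher in the second library, and Neurod1, Scg3, Insm1 and Rfx6 were lower there. Other tissue was also visible. Pancreatic acinar markers, all 10 at 1 TPM or more in both libraries, summed to 13374.7 TPM in the second against 2124.0 TPM in the first. The part of pancreatic tissue and of the mitochondrial share in the hormone values was not tested.

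Together the 10 hormone genes stood at 515.2 TPM in the second library against 43.5 TPM in the first, or 0.0515% of all TPM in the second library against 0.00435% in the first. The sum rested on 4390 counts in the second library against 950 in the first. The ratio of the sums, 11.8-fold on TPM, was 4.18-fold once mitochondrial genes and their copies were left out of the TPM total, and 5.33-fold as a share of counts. All 10 members reached 1 TPM in the second library, against 6 in the first, where Ghrl and Pyy had 0 counts. Both libraries came from the same biological sample, so this is a difference between libraries, and its cause was not tested. Within either library, bulk tissue does not separate the number of hormone cells from the RNA per cell.

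**Figure D1:**
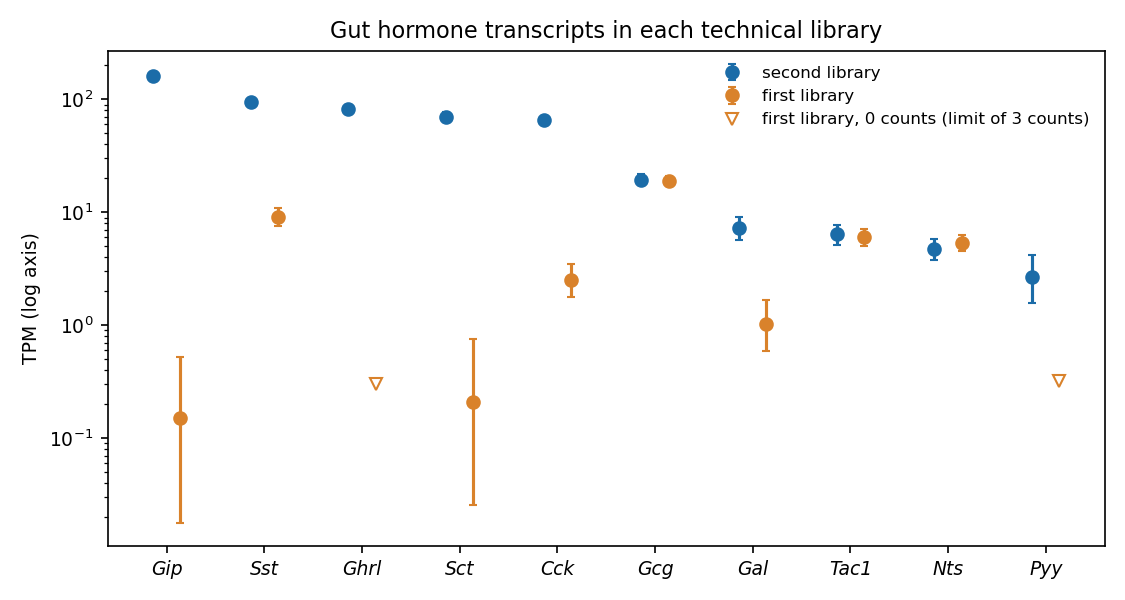
Level of each hormone gene in TPM on a log axis, in the second and the first library, with 95% exact Poisson intervals of the counts (counting error only). Gip led the second library at 162 TPM and Gcg the first at 19.1 TPM, and a gene with 0 counts is drawn at its limit of 3 counts.

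The order of the hormones differed between the libraries. By TPM in the second library, Gip came first, then Sst, Ghrl, Sct, Cck, Gcg, Gal, Tac1, Nts and Pyy. Of the 9 neighbouring pairs in that order, 6 had overlapping counting intervals (Sst with Ghrl, Ghrl with Sct, Sct with Cck, Gal with Tac1, Tac1 with Nts, and Nts with Pyy). In the first library Gcg came first, then Sst, Tac1, Nts, Cck, Gal, Sct and Gip, with Ghrl and Pyy at 0. There 5 of 9 neighbouring pairs overlapped (Tac1 with Nts, Gal with Sct, Sct with Gip, Gip with Ghrl, and Ghrl with Pyy). Spearman's rho of TPM between the libraries was -0.07 over the 10 genes.

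Gip made up 31.5% of the hormone TPM in the second library against 0.345% in the first. Gcg made up 3.77% in the second library against 43.8% in the first. The 2 genes therefore changed places: the TPM of Gip was 8.34 times that of Gcg in the second library against 0.00787 times that of Gcg in the first. Gcg, Nts and Tac1 summed to 30.5 TPM in the second library against 30.4 TPM in the first. On TMM-scaled counts the ratio, second over first, was 0.414 for Gcg, 0.368 for Nts and 0.512 for Tac1, so the near-equal sum is a value on the TPM scale. On TPM the other 7 members were all higher in the second library, and these 3 genes held 5.93% of the hormone TPM there and 70.0% in the first library.

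**Figure D2:**
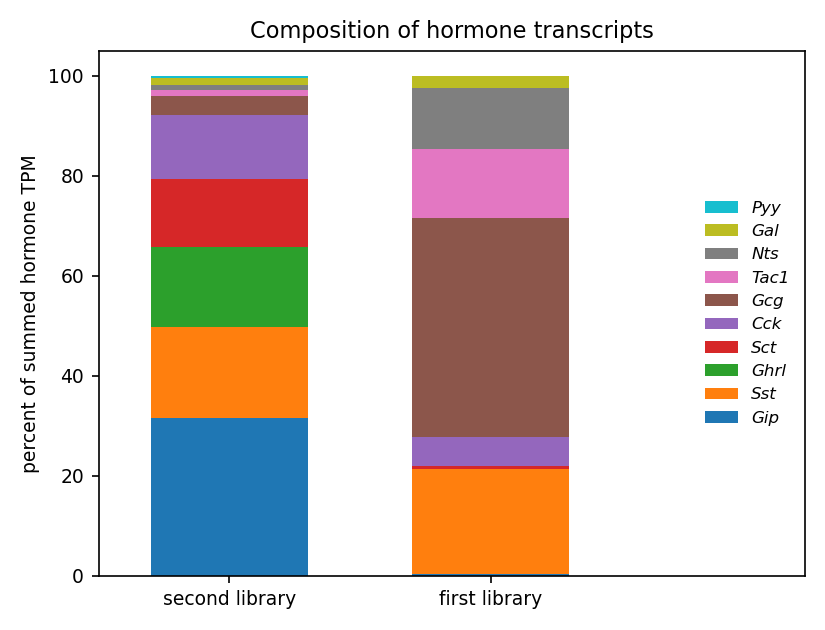
Share of each hormone gene in the summed TPM of the 10 members, in percent, with the second library left of the first. Gip, Sst, Ghrl, Sct and Cck filled much of the second library's bar, whereas Gcg, Tac1 and Nts took 70.0% of the first library's bar. Sst took a large share of both, at 18.3% in the second library against 21.05% in the first.

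Whether a gene differed between the libraries was tested with a two-sided exact binomial test of its counts, after scaling by trimmed mean of M values (TMM), with Benjamini-Hochberg adjustment over the 15194 genes that had 20 or more counts over both libraries. The test compares these 2 libraries for counting error only. A gene was called when its adjusted p was under 0.05 and its ratio was 2-fold or more. Of the 10 members, 9 had enough counts and Pyy did not. Called higher in the second library were 6 (Gip, Ghrl, Sct, Cck, Sst and Gal), where 40.2% of all tested genes were called higher. Called lower were 2 (Gcg and Nts), where 27.5% of all tested genes were. In either direction 67.7% of tested genes were called. Tac1 passed the adjusted p but not the fold, and all 9 tested members passed the adjusted p at any fold, which 88.7% of all tested genes did. The members' median log2 ratio, second over first, was 2.12, against 0.26 over all tested genes. The split of calls depended on scaling. With total counts as library size 51.4% of tested genes were called higher and 10.0% lower, and the median over all genes moved up by 0.84. On the authors' TPM 58.2% were called higher and 4.25% lower, with the median moved up by 1.25. On both of these scales no member was called lower.

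**Figure D3:**
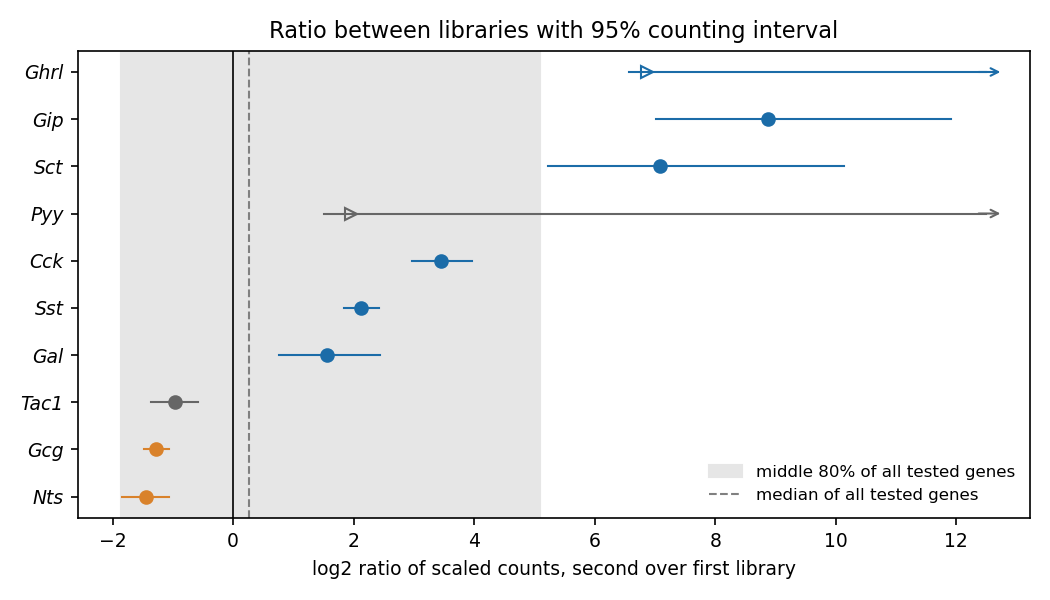
Log2 ratio of TMM-scaled counts, second over first library, with 95% exact intervals (counting error only), called higher in blue, called lower in orange and not called in grey, with the middle 80% of all tested genes shaded. Gip and Sct lie above the shaded range and so does the bound of Ghrl; triangles for Ghrl and Pyy are lower bounds against 3 counts. The Gcg, Nts and Tac1 intervals lie below 0 on this scaling, whereas their TPM intervals overlap between the libraries.

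Among the hormones of the proximal gut, Gip, Sct and Ghrl had at most 2 counts each in the first library. Gip, which encodes glucose-dependent insulinotropic polypeptide of K cells, an incretin released after a meal (chr11:96024545-96030831, plus strand, mm10), had 1448 counts in the second library against 2 in the first. These gave levels of 162 TPM (95% counting interval 154 to 171) in the second library against 0.150 TPM (0.0177 to 0.528) in the first. The second library was therefore far higher and the intervals did not overlap, with a ratio of scaled counts of 467 whose 95% interval ran from 129 to 3859 because the first library held so few counts. Its log2 ratio was 8.55, above that of 99.9% of tested genes within 2.5 percentage points of its GC content, whose median was 1.58 (genes with 0 counts in a library stood at their bound for the share). All of its counts were assigned to the transcript Gip-202 in both libraries.

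Sct, which encodes secretin, the S-cell hormone that drives bicarbonate secretion by the pancreatic ducts (chr7:141278330-141279133, minus strand), had 421 counts in the second library against 2 in the first. Its level was 70.1 TPM in the second library against 0.210 TPM in the first, again without overlap of the intervals. The ratio was 136 (95% interval 37.4 to 1125). Sct is the member richest in G and C, at 59.4% over its transcripts, and the median log2 ratio of tested genes near that content was 4.69 against 6.77 for Sct.

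The annotated Sct transcripts differ at the start of exon 4, where Sct-201 carries 18 bases (chr7:141278522-141278539, minus strand) that Sct-202 lacks. They are shown in capitals between the 9 bases on each side in the Sct-201 transcript.
Sct exon 4 start: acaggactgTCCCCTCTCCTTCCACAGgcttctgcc
The authors' isoform share of Sct-202 was 88.0% in the second library, from 364.3 estimated counts against 56.7 for Sct-201. In the first library it was 53.3%, but there each form had 1 count, so the shares could not be compared at this depth.

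Ghrl encodes ghrelin, the appetite-stimulating peptide made mainly in the stomach and also in the proximal small intestine (chr6:113716119-113719880, minus strand). It had 544 counts, or 82.6 TPM (75.8 to 89.9), in the second library against 0 counts in the first, where a limit of 3 counts stands at 0.3003 TPM. On TMM-scaled counts, set against 3 counts in the first library, it was higher by at least 117-fold (the exact 95% interval of the ratio began at 94.8), and adjusted p was 1.23e-117 (exact binomial test, Benjamini-Hochberg adjusted). With genes at 0 set to their bounds, 97.1% of tested genes of like GC content had a lower log2 ratio than Ghrl. An exon of Ghrl overlaps exons of Gm26982 and Gm44033 on the opposite strand. Gm26982 had 38 counts in the second library against 13 in the first, Gm44033 was not analysed here, and the sources used here do not say whether reads were counted by strand. The 10 stomach markers summed to 15.2 TPM in the second library against 0.26 TPM in the first. Nearly all of the second library's sum was Gkn3, at 13.5 TPM there against 0.10 TPM in the first. Only 2 of the 10 had enough counts to be tested. Both were called higher, as were 40.2% of all tested genes. Gkn1 had 0 counts in the second library against 1 in the first. Pgc, a pepsinogen gene, had 33 counts in the second library against 1 in the first and Atp4a, a proton pump gene, 10 in the second against 2 in the first. Gast, Atp4b, Muc5ac, Muc6, Tff1 and Gkn2 had 0 counts in both libraries, and the part of stomach RNA in the level of Ghrl was not tested.

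Cck encodes cholecystokinin, the I-cell hormone that contracts the gall bladder and stimulates pancreatic enzyme secretion (chr9:121489824-121495694, minus strand). It had 627 counts in the second library against 37 in the first, giving 65.6 TPM (60.6 to 71.0) in the second library against 2.52 TPM (1.78 to 3.48) in the first. The second library was higher without overlap, by a ratio of 10.9 (95% interval 7.84 to 15.7; adjusted p = 9.53e-90, exact binomial test). Tested genes of like GC content had a median log2 ratio of 4.22, above the 3.43 of Cck, and with the GC trend removed its log2 ratio was -0.92.

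Sst encodes somatostatin, the inhibitory hormone of D cells that restrains the release of the other gut hormones (chr16:23889573-23890958, minus strand). It ranked second in both libraries, with 749 counts and 94.4 TPM (87.7 to 101) in the second library against 111 counts and 9.16 TPM (7.54 to 11.03) in the first. The ratio was 4.35 (95% interval 3.56 to 5.36; adjusted p = 1.31e-64, exact binomial test). Genes of like GC content had a median log2 ratio of 3.22 against 2.12 for Sst, and its log2 ratio was -1.20 with the GC trend removed, so the direction turned with that adjustment.

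Among the hormones of L and N cells, Gcg and Nts had nearly equal TPM in both libraries. Gcg encodes proglucagon, which gut L cells process to GLP-1, GLP-2 and oxyntomodulin and islet alpha cells to glucagon (chr2:62474530-62483650, minus strand). It had 321 counts in the second library against 500 in the first, and levels of 19.4 TPM (17.4 to 21.7) in the second library against 19.1 TPM (17.4 to 20.8) in the first. The TPM intervals overlapped almost fully. On TMM-scaled counts the ratio was 0.414 (95% interval 0.359 to 0.477; adjusted p = 1.57e-35, exact binomial test), a log2 ratio of -1.27 against 0.03 on TPM, so the call as lower in the second library depended on the scaling. Genes of like GC content, near 46.6%, had a median log2 ratio of -0.77.

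Nts encodes neurotensin and neuromedin N, N-cell peptides that slow gut motility and aid fat absorption (chr10:102481756-102490486, minus strand). It had 89 counts and 4.73 TPM (3.80 to 5.83) in the second library against 156 counts and 5.34 TPM (4.54 to 6.25) in the first. The TPM intervals overlapped. Nts was called lower on TMM-scaled counts, with a ratio of 0.368 (95% interval 0.280 to 0.480; adjusted p = 2.55e-14, exact binomial test). Its direction turned when the GC trend was removed, since the log2 ratio was -1.44 before and 0.67 after. Its transcript, with 39.4% G or C, is the poorest of the members, and tested genes of like content had a median log2 ratio of -2.02.

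Pyy encodes peptide YY, an L-cell hormone that slows gut transit and curbs appetite (chr11:102106676-102107832, minus strand). It was the lowest member in the second library, with 18 counts and 2.67 TPM (1.59 to 4.23), and had 0 counts in the first library, where 3 counts would be 0.323 TPM. With 18 counts in all it was not tested. On TMM-scaled counts, set against 3 counts in the first library, it was higher by at least 3.87-fold in the second (the exact 95% interval began at 2.84). That bound is a log2 ratio of 1.95, whereas tested genes of like GC content, near 58.5%, had a median of 4.42. Since 1.95 is a lower bound, the place of Pyy among those genes is not known. By rank in the second library, the hormones best known from the distal gut (Gcg, Nts and Pyy) thus stood below those best known from the proximal gut (Gip, Ghrl, Sct and Cck). In the first library Gcg and Nts stood above all of these. Of the 8 colon markers, which summed to 119 TPM in the second library against 108 TPM in the first, Insl5, Hoxb13, Hoxd10 and Hoxd13 had 0 counts in both libraries. Slc26a3, a chloride exchanger also found in small intestine, stood at 89.6 TPM in the second library against 105.8 TPM in the first, and Aqp8, a water channel, at 29.7 TPM in the second against 1.96 TPM in the first. The part of colon RNA in the hormone levels was not tested.

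The remaining members, Tac1 and Gal, are neuropeptide genes that enteroendocrine cells and enteric neurons share. Tac1 encodes substance P and neurokinin A, which contract gut muscle (chr6:7554879-7565834, plus strand). It had 100 counts and 6.38 TPM (5.19 to 7.76) in the second library against 126 counts and 6.03 TPM (5.02 to 7.18) in the first, with overlapping TPM intervals. On TMM-scaled counts the ratio was 0.512 (95% interval 0.390 to 0.671; adjusted p = 7.51e-07, exact binomial test), which is under a 2-fold change, and its log2 ratio of -0.96 was close to the median of -0.90 of tested genes of like GC content. On the authors' TPM its log2 ratio was 0.08, so the direction depended on scaling. Gal encodes galanin, a peptide that inhibits transmitter and hormone release (chr19:3409915-3414544, minus strand). It had 73 counts and 7.25 TPM (5.69 to 9.12) in the second library against 16 counts and 1.03 TPM (0.592 to 1.68) in the first. It was higher in the second library by a ratio of 2.94 (95% interval 1.70 to 5.42; adjusted p = 3.58e-05, exact binomial test), and its log2 ratio was -0.64 with the GC trend removed. The 10 enteric neuron markers summed to 43.5 TPM in the second library against 36.4 TPM in the first, led by Vip at 19.1 TPM in the second against 28.4 TPM in the first. All 10 were tested, and they went both ways. Called higher were 4 (Uchl1, Prph, Tubb3 and Nos1) and called lower 3 (Vip, Snap25 and Elavl4). Over all tested genes 40.2% were called higher and 27.5% lower. The part of enteric neuron RNA in the levels of Tac1 and Gal was not tested.

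Tac1 is the member whose annotated transcripts differ in which peptides they can give. The first of those described here keeps all 7 exons (the beta form), another lacks exon 4 (the gamma form), and the alpha form lacks exon 6, which codes for neurokinin A. Both exons are shown in capitals between the 9 bases on each side in the beta form, exon 4 from chr6:7557216-7557260 and exon 6 from chr6:7559099-7559152, plus strand.
Tac1 exon 4: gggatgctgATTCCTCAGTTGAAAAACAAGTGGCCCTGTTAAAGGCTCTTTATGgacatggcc
Tac1 exon 6: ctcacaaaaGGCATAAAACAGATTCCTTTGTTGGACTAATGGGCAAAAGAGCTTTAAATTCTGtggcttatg
The form with all exons took 59.1% of Tac1 TPM in the second library against 38.02% in the first, by the authors' isoform shares. The form without exon 4 took 40.9% in the second library against 62.0% in the first. Its annotated transcript is shorter than the form with all exons by far more bases than exon 4 holds. The shares are therefore of whole annotated transcripts, and skipping of exon 4 by itself was not tested. As shares of the estimated counts, the form with all exons held 74.8% in the second library against 56.0% in the first. The alpha form, which cannot give neurokinin A, had 0 counts in both libraries. These shares are model estimates from 100 counts in the second library against 126 in the first, and no interval was computed for them.

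GC content moved with the ratio, both across the members and across all genes. Pearson's r between GC content and log2 ratio was 0.69 and Spearman's rho 0.67 over the 9 tested members, as a description of genes that share 2 libraries. Spearman's rho was 0.85 over 15127 tested nuclear genes. The members' transcript length ran the other way (rho -0.88 over the 9). Among tested genes under 42.5% GC, where Nts lies, 0.201% were called higher and 94.8% lower. From 42.5% to 47.5%, where Gcg and Tac1 lie, 1.89% were called higher and 57.3% lower. From 47.5% to 52.5%, which holds no tested member, 28.6% were called higher and 13.2% lower. From 52.5% to 57.5%, which holds Gip, Sst, Ghrl and Gal, 78.9% were called higher and 1.75% lower, and from 57.5% up, which holds Cck and Sct, 93.9% were called higher and 0.773% lower. The direction of the call in all 8 called members was the one that most genes of their GC range took. With the GC trend removed, 3 members were called higher (Gip, Ghrl and Sct) and 1 lower (Sst), beside 17.5% of tested genes higher and 17.6% lower, and the members' median log2 ratio was -0.09 against -0.01 over all. Gip and Ghrl were then still higher, at 6.91 for Gip and 4.02 for Ghrl at its bound against 3 counts, and Sct stood at 1.85. The part of GC content in the members' ratios was not tested beyond this adjustment.

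**Figure D4:**
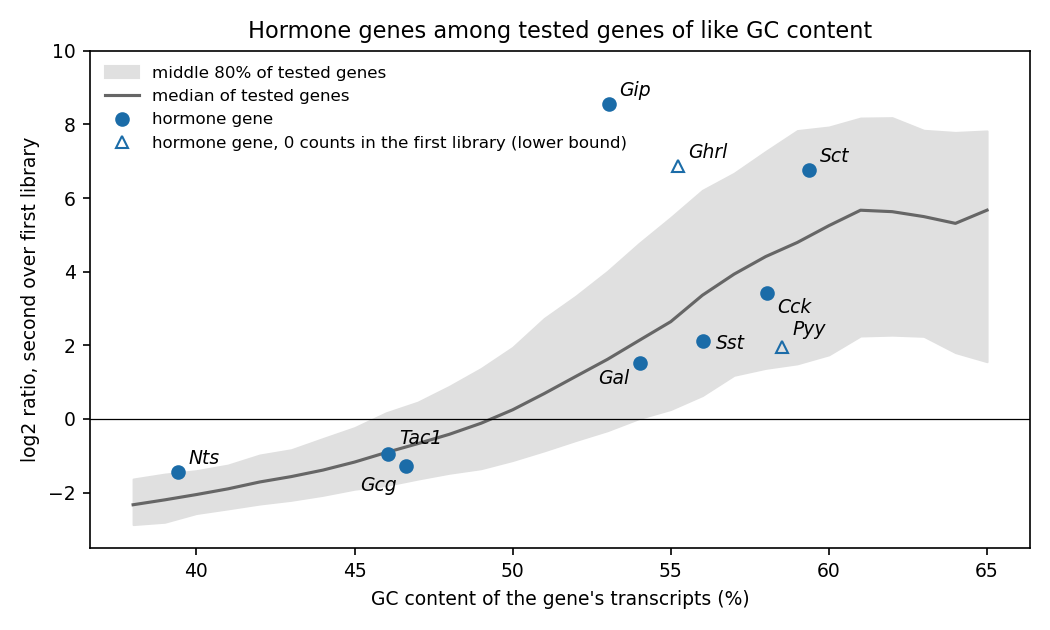
Log2 ratio of scaled counts, second over first library, against the GC content of each gene's transcripts in percent. The line and band give the median and the middle 80% of tested genes, points are hormone genes, and open triangles are lower bounds of the 2 genes with 0 counts in the first library. Gip and Ghrl lie above the band, and Gcg and Tac1 lie below 0 here but at 0.03 for Gcg and 0.08 for Tac1 on the authors' TPM.

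Receptors for these hormones were mostly near the limit of detection. Of 26 listed receptor genes 25 were analysed here (Galr3 was not), and 3 reached 1 TPM in both libraries. Sort1, the sorting receptor sortilin that also binds neurotensin, led at 33.1 TPM in the second library against 9.67 TPM in the first. Glp2r, the GLP-2 receptor, stood at 4.15 TPM in the second library against 1.65 TPM in the first. Cckar, the cholecystokinin receptor of the gut and pancreas, stood at 2.53 TPM in the second library against 1.57 TPM in the first. Of 13 tested, 5 were called higher in the second library (Galr2, Tacr2, Sstr1, Gcgr and Sstr5), 3 lower (Npy2r, Galr1 and Tacr3) and 5 neither, beside 40.2% higher and 27.5% lower over all tested genes, with a median log2 ratio of 0.05. Both shares of calls lay near those of all tested genes. Galr2 had 29 counts in the second library against 0 in the first, and Tacr3 had 5 counts in the second against 20 in the first, so even the called receptors rested on few reads. The receptors of GIP and secretin had few counts. Gipr had 14 in the second library against 0 in the first, and Sctr had 18 in the second against 1 in the first. Glp1r had 15 in the second library against 0 in the first. Ghsr, the ghrelin receptor, Cckbr and Npy5r had 0 counts in both. Tacr1, Npy1r, Sstr2, Sstr3, Sstr4, Ntsr1, Ntsr2 and Npy4r all lay under 1 TPM in both libraries.

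Of the 14 genes that process or inactivate the peptides, 12 reached 1 TPM in the second library against 10 in the first. The peptidases of the brush border led. Mme (neprilysin) stood at 331.8 TPM in the second library against 524.5 TPM in the first, and Dpp4, which inactivates GLP-1 and GIP, at 153.2 TPM in the second against 277.2 TPM in the first. Ece1, an endothelin-converting peptidase, stood at 64.2 TPM in the second library against 1.53 TPM in the first. Of 13 tested, 3 were called higher and 4 lower (beside 40.2% higher and 27.5% lower over all tested genes), with a median log2 ratio of -0.73. The convertase Pcsk1, which cuts several of the prohormones, had 205 counts in the second library against 220 in the first, a log2 ratio of -0.73 that was not called. Mboat4, the enzyme that acylates ghrelin, had 9 counts in the second library against 5 in the first, too few to be tested.

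Of the 12 granule and amine genes, which act in storage of hormones and serotonin synthesis, 11 reached 1 TPM in the second library against 7 in the first, and 4 of 11 tested were called higher and 2 lower (beside 40.2% higher and 27.5% lower over all tested genes), with a median log2 ratio of 0.20. Ddc, the decarboxylase of serotonin synthesis, stood at 215.4 TPM in the second library against 168.8 TPM in the first. Chgb stood at 78.3 TPM in the second library against 12.6 TPM in the first, and Chga, the chromogranin used as a general enteroendocrine marker, at 50.9 TPM in the second against 0.78 TPM in the first. Of the 20 transcription factors of the lineage, 3 of 19 tested were called higher and 9 lower (beside 40.2% higher and 27.5% lower over all tested genes), with a median log2 ratio of -0.68. Median GC content of the 20 factors was 55.16%. From 52.5% to 57.5% GC, 78.9% of tested genes were called higher and 1.75% lower. With the GC trend removed, the median log2 ratio of the tested factors was -1.98. Their highest genes were Pdx1 at 7.82 TPM in the second library against 2.14 TPM in the first, Tox3 at 3.39 TPM in the second against 3.47 TPM in the first, and Foxa1 at 2.89 TPM in the second against 3.82 TPM in the first. Of the 18 nutrient and bile acid sensors, 6 of 11 tested were called higher and 3 lower (beside 40.2% higher and 27.5% lower over all tested genes), with a median log2 ratio of 1.82. Slc5a1, the sodium-glucose transporter that is also abundant in absorptive cells, led at 652.5 TPM in the second library against 344.3 TPM in the first, ahead of Lpar5 and Trpa1. Of the 8 enteroendocrine markers tested, 2 were called higher (Chga and Chgb) and 4 lower (Neurod1, Scg3, Insm1 and Rfx6) on TMM-scaled counts, beside 40.2% higher and 27.5% lower over all tested genes.

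**Figure D5:**
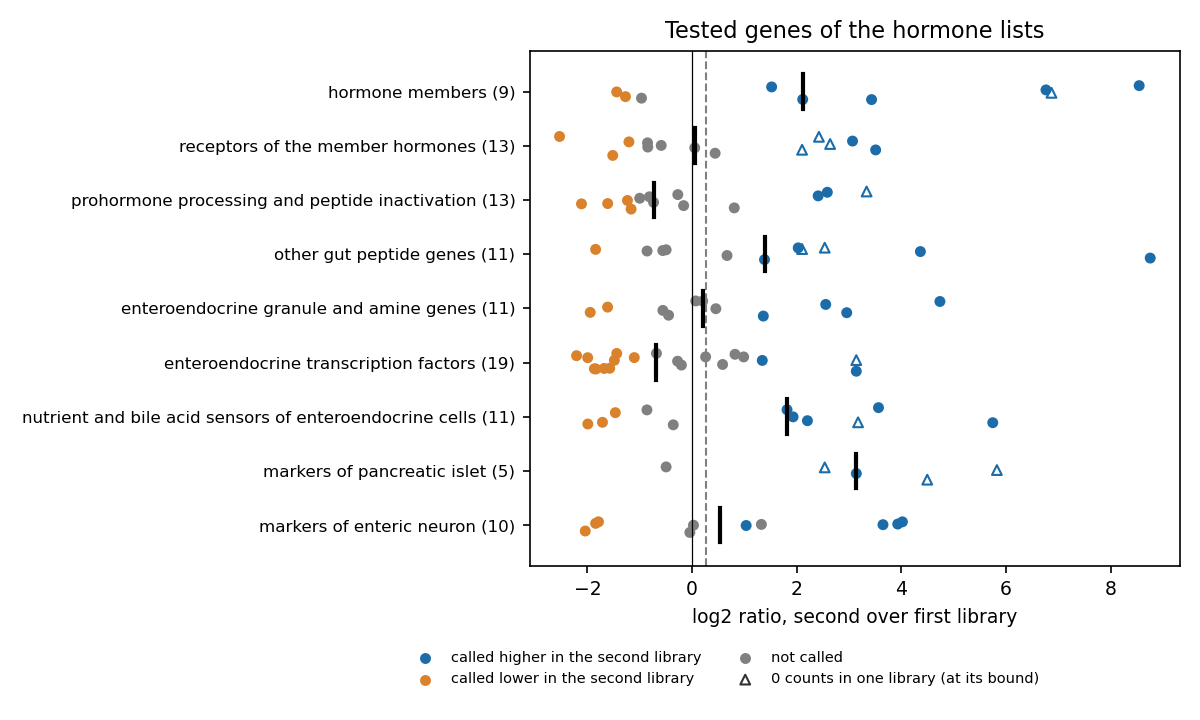
Log2 ratio of scaled counts, second over first library, of each tested gene in the hormone and pathway lists and in the islet and enteric neuron marker lists (number tested in brackets), with the list median as a bar and the median of all tested genes as a dashed line. The hormone median was 2.12 and that of all tested genes 0.26. Of the 9 lists drawn, only the islet markers, with 5 tested, hold no gene called lower on this TMM scaling. The acinar and stomach markers, which are not drawn, hold none either, and 27.5% of all tested genes were called lower.

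Islets share the hormone genes Sst, Gcg, Ghrl and Pyy with the gut, so islet markers were set beside them. The 9 markers summed to 68.4 TPM in the second library against 4.33 TPM in the first. Of 5 tested, 4 were called higher and 0 lower, beside 40.2% higher and 27.5% lower over all tested genes. Ins2 had 264 counts in the second library against 0 in the first, and Ins1 had 105 in the second against 0 in the first. Ppy had 27 in the second against 0 in the first, and Iapp, which gut cells also express, had 87 in the second against 79 in the first. G6pc2 had 6 in the second against 7 in the first, and Slc30a8 had 6 in the second against 2 in the first. Mafa and Nkx6-1, beta-cell transcription factors, had 0 counts in both. The part of islet RNA in the levels of Sst, Gcg, Ghrl and Pyy was not tested.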

How the data were processed

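Poly(A) RNA-seq was measured in 2 technical libraries of 1 mouse. Per the file headers, each library has a gene and a transcript table in RSEM format, and the deposited notes give assembly mm10 and annotation M4. The aligner, the quantifier's version and strandedness were, per the sources at hand, not stated. The authors deposited expected counts (estimated counts that share ambiguous reads), TPM and FPKM values and isoform shares in percent of a gene's TPM. The deposited posterior SD of the count was 0 for all 10 members in both libraries.

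Identifiers were matched without version to GENCODE M21, which named 42462 genes. Expected counts were rounded and scaled by TMM (edgeR 4.0.16, R 4.3.3). Since 1 library a side leaves nothing to estimate spread from, the quasi-likelihood test of edgeR and the DESeq2 test could not be fitted, and a two-sided exact binomial test with Benjamini-Hochberg adjustment (scipy 1.17.1, statsmodels 0.14.6) was used on genes with 20 or more counts over both libraries. The test was tried on simulated Poisson counts with known folds. Such counts hold counting error only, without the GC trend between these libraries. The trial therefore cannot show how the test behaves under that trend. Fitted log2 ratios used a prior count of 0.5, and genes with 0 counts in a library are given as bounds against 3 counts. Ratio intervals are 95% Clopper-Pearson and level intervals 95% exact Poisson, both for counting error only. Transcript GC content was averaged for each gene, and its trend was a lowess curve with span 0.3 (statsmodels 0.14.6). BLAST was used to find nuclear copies of mitochondrial genes, at 95% identity over 100 bases. Alternatives were DESeq2 1.42.0 size factors, other scalings, filters, priors and thresholds. The share of calls within GC ranges was added after seeing the data. Named genes were all members, all receptors and up to 3 genes of highest mean TPM from each list. Further genes were singled out after their values were seen, among them Pcsk1, Mboat4, Ins1, Ppy and the markers at 0 counts. The called enteroendocrine and enteric neuron markers were also named after their values were seen. The members and lists were chosen with earlier results of these data known.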

Additional observations from a re-analysis of the deposited data

How the results depend on the processing

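The count of members called higher was 6 under the other scalings and the 50-count filter. It was 7 with no filter, 5 at 4-fold and 3 with the GC trend removed. Over all tested genes the share called higher moved as well, from 39.7% to 58.2% under those scalings and 40.4% with the 50-count filter. That share was 31.0% with no filter, 30.3% at 4-fold and 17.5% with the GC trend removed. The 2 lower calls were fewer under 6 settings. There were 0 with total expected counts, counts per kilobase, the authors' TPM, the authors' FPKM and the 4-fold threshold, and 1 with the GC trend removed. The share of all tested genes called lower, 27.5% in the main setting, fell in the same settings. It was 10.0% with total expected counts, 7.06% with counts per kilobase, 4.25% on TPM and 10.4% on FPKM. At 4-fold it was 7.68%, and with the GC trend removed 17.6%. Lower calls stayed at 2 with total expected counts without mitochondrial genes and their nuclear copies (log2 ratio -1.07 for Gcg and -1.24 for Nts). In that setting 23.45% of all tested genes were called lower. With DESeq2 size factors 3 members were called lower, beside 28.37% of all tested genes. Direction turned for Cck (-0.92), Sst (-1.20), Gal (-0.64) and Nts (0.67) with the GC trend removed, and on the authors' TPM for Gcg (0.027) and for Tac1 (0.08), which was not called and turned on counts per kilobase too (0.06). Tac1 was called on DESeq2 size factors at -1.01. Without a filter on low counts 10 receptors were called higher and 3 lower, since more were tested. Over all 20960 genes tested without that filter, 31.0% were called higher and 21.6% lower. The number of members at the same place as in the order by mean TPM was 2 to 7 when 1 library was left out, and the summed level was 43.5 to 515.2 TPM. Where no reason is given, the cause was not tested. Counts limit Pyy, most receptors, and Gip and Sct in the first library, whose ratios are known only within wide intervals. No paired analysis was possible because there is 1 group of 2 technical libraries.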

Other observations

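Other peptide genes of the gut, outside the 10 hormone genes, were read from the same tables. Of 20 listed, 11 reached 1 TPM in the second library against 4 in the first. Guca2b, which encodes the gut peptide uroguanylin, stood at 1738.2 TPM in the second library against 35.6 TPM in the first, more than the 10 hormone genes together in the second library. Guca2a, which encodes guanylin, had 1006 counts in the second library against 1 in the first, a log2 ratio of 8.76 beside 8.55 for Gip. Vip, the neuronal peptide, ran the other way on TMM-scaled counts, with 485 counts in the second library against 1122 in the first (log2 ratio -1.84). Of 11 tested, 6 were called higher and 1 lower, beside 40.2% higher and 27.5% lower over all tested genes. Adcyap1, Calca, Fgf15, Gast, Insl5 and Tac4 had 0 counts in both libraries. Of these, Fgf15 encodes a hormone of the ileum and Gast a hormone of the stomach antrum.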
